A study of Capra hircus with 6 samples.

Results

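Genes that encode the enzymes and ATPases of chromatin were examined in the pineal gland of female goats (Capra hircus), as 1 group of genes in a comparison of puberty with prepuberty. The members were chosen by gene symbol. They are the KMT, SETD, EZH1, EZH2, NSD1 and ASH1L histone methyltransferases with their relatives, and the KDM demethylases. Further members are the KAT acetyltransferases with EP300 and CREBBP, the HDAC and SIRT deacetylases, and the BRD readers. The remodellers and their subunits are the SMARC, CHD and BAZ genes with BPTF and INO80. ARID genes were also members, and 7 of them were grouped apart from the remodellers as other ARID proteins. Of 28244 genes in the authors' count table, 106 carried such a symbol, and 105 of them passed the filter on low counts among 16588 genes tested. ARID3C, an ARID gene with a mean of 0.116 FPKM (the authors' unit, scaled by gene length and library), did not pass. ATRX and EP400, remodelling ATPases that the choice also named, matched no symbol and were not analysed here.

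Pineal glands of pubertal goats (puberty, 3 libraries) were set against glands of prepubertal goats (prepuberty, 3 libraries), all untreated females. The pubertal state had been read from an inflamed vulva and from mature follicles in sections of the ovary, per the series description. The sources used here give no breed, age, hour of collection or number of animals per library. A p-value therefore reflects the scatter among these 6 libraries, some of which may be technical. Each library is RNA of a whole gland, in which fewer cells of a type and less RNA per cell cannot be told apart.

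DNA in the nucleus is wound around histones, and the genes described here write, erase and read chemical marks on those histones or move them with the energy of ATP. Methylation of histone H3 at lysine 4 accompanies active promoters and enhancers, methylation at lysine 36 transcribed gene bodies, and methylation at lysines 9 and 27 silenced genes. Acetylation opens chromatin, and deacetylases remove it. In the hypothalamus of the female rat, Polycomb repression, the H3K4 methyltransferases KMT2A and KMT2C and the deacetylase SIRT1 are known to take part in the timing of puberty. In humans, loss of the remodeller CHD7 is a cause of delayed or absent puberty. The pineal gland, which secretes melatonin at night, signals day length to the reproductive axis of seasonal breeders such as goats.

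The libraries held 18864451 to 20971065 counts. All 12 pinealocyte markers were detected, with the melatonin enzyme genes TPH1 and ASMT at 1131 and 1025 FPKM on average. Puberty replicate 2 stood apart by choroid plexus RNA: the 5 detected markers of 8 listed summed to 10239 CPM in it and to 103 to 513 CPM in the other libraries. TTR alone gave 10089.5 of the 10239 CPM. KCNJ13 (84.8 CPM), KL (42.8 CPM) and PRLR (0.75 CPM) were also highest in that library. SLC4A5 went the other way and was lowest there, at 21.2 CPM against 25.0 to 47.6 CPM. Results are therefore also given without puberty replicate 2.

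Most of these genes were well expressed. Over the 6 libraries, 80 of the 105 tested members had a mean of at least 10 FPKM, and 6 were below 2 FPKM. The median of these means was 17.8 FPKM for the members and 10.8 FPKM for all tested genes. CHD4, the ATPase of the NuRD deacetylase complex, had the highest level, with 146 ± 7.6 FPKM in puberty and 169 ± 7.8 FPKM in prepuberty (SD, n = 3 per group). KAT2B, a GCN5-related acetyltransferase, followed with 116 ± 13 FPKM in puberty and 131 ± 8.2 FPKM in prepuberty (SD, n = 3 per group). SMARCD3, a SWI/SNF subunit of neurons and muscle, had 124 ± 26 FPKM in puberty and 98.7 ± 11 FPKM in prepuberty, and BRD2, a reader of acetylated histones, 82.8 ± 1.2 FPKM in puberty and 83.6 ± 1.9 FPKM in prepuberty (SD, n = 3 per group). None of these 4 genes was called, with adjusted p-values of 0.17, 0.31, 0.19 and 0.91 by edgeR's quasi-likelihood test. The lowest levels among the tested members belonged to ARID5A, a DNA- and RNA-binding ARID protein (0.821 FPKM), and BAZ1A, a partner of the ISWI ATPase (0.978 FPKM).

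Many large chromatin regulators were lower in puberty. Of the 105 tested members, 25 fell and 2 rose at an adjusted p under 0.05 (edgeR quasi-likelihood test on counts, Benjamini-Hochberg adjustment over all genes tested). Among all tested genes 5.64% fell and 5.85% rose. The share of calls that were lower was 92.6% for the members and 49.1% for all genes. The median log2 fold change, puberty over prepuberty, was -0.20 for the members and 0.0054 for all tested genes. The changes were small: the folds of the called members ran from 1.29 to 1.74, with a median of 1.43. In CPM (counts scaled to a common, TMM-adjusted library total), all 3 puberty libraries lay below all 3 prepuberty libraries for 51 members and above them for 10, against 17.6% and 17.2% of all tested genes.

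The fall was seen in each puberty library. The counts of all members together came to 10559.7, 9844 and 10168 CPM in the puberty libraries, against 12163, 11638 and 12061 CPM in the prepuberty libraries. The 2 groups do not overlap, and puberty replicate 2 was the lowest. The median deviation of the members from their own mean on the log2 CPM scale was -0.07, -0.13 and -0.11 in the puberty libraries, against 0.14, 0.06 and 0.12 in the prepuberty libraries. For all tested genes this median lay between -0.0024 and 0.0051 in every library. The scaling and the centring on gene means keep that value near 0, and no such median was taken for other genes of like length.

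**Figure D1:**
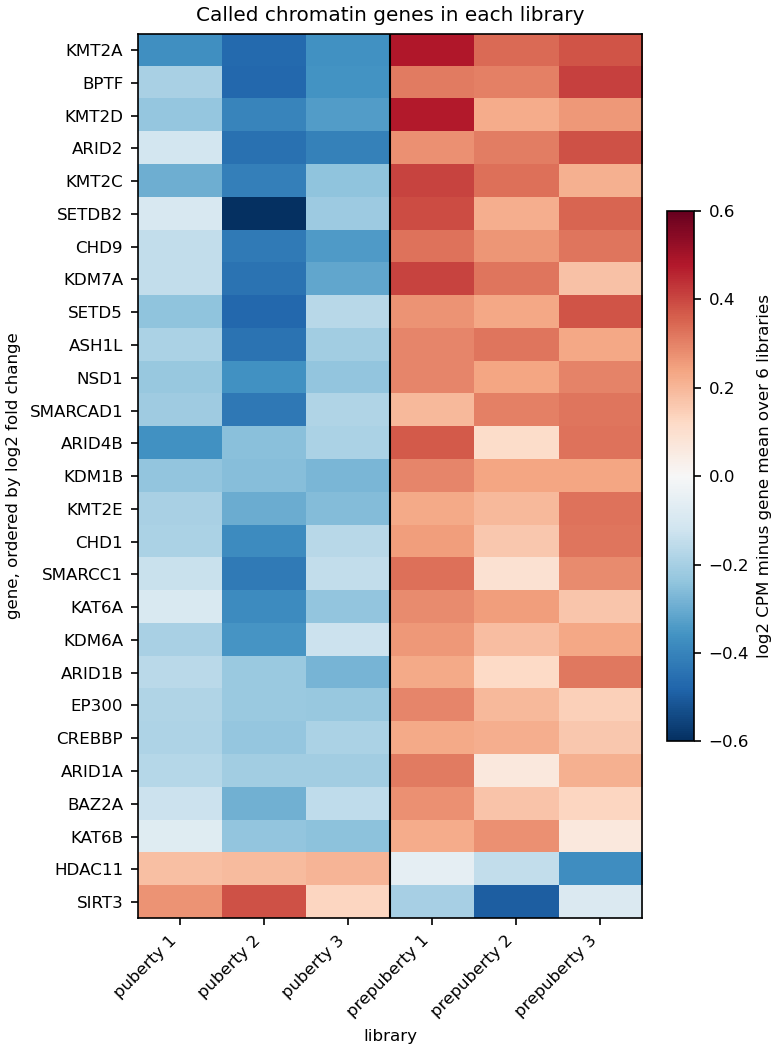
Log2 CPM of the 27 called chromatin genes in each of the 6 libraries (columns, puberty left of prepuberty), shown as the difference from the mean of that gene over the 6 libraries. Rows run by log2 fold change from KMT2A (-0.80) to SIRT3 (0.51); 25 genes are below their mean in all puberty libraries and above it in all prepuberty libraries, and HDAC11 and SIRT3 are the reverse.

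These calls depended on the libraries. Without puberty replicate 1, 2 or 3, 21, 13 and 20 members were called lower. Without prepuberty replicate 2 or 3, the numbers were 22 and 14. Without prepuberty replicate 1, edgeR called 0 members and 0 genes of the whole table, with 37 members lower and 6 higher at an unadjusted p under 0.05. On those 5 libraries limma-voom also called 0 members, and DESeq2 called 25 lower and 1 higher. Of the 27, 11 were called in 5 of these 6 fits (KMT2A, BPTF, KMT2C, NSD1, CHD9, KMT2D, KMT2E, ASH1L, SETD5, ARID2, KDM1B), and 4 in none (BAZ2A, KAT6B, HDAC11 and SIRT3). No called member turned its direction when a library was left out, but all these fits reuse most of the same libraries.

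Gene length moved with this result. Chromatin genes are long: the listed length had a median of 4320 nt over the tested members and of 1903 nt over all tested genes. Long genes as a class were lower in puberty, and within the members too the longest fell most often. Spearman's rho between log2 fold change and length was -0.59 across the 105 members and -0.28 across the 16588 tested genes. These are descriptions across genes of the same 6 libraries, and genes are not independent replicates. Of the listed lengths, 53 of 106 are divisible by 3, and a part of any set of lengths is so by chance. Some gene models may hold the coding sequence without untranslated regions, which was not tested.

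Within each class of length the members were set beside all tested genes. Of 16 members of 8000 nt and over, 9 fell (56.2%, against 26.0% of 504 tested genes of that length), and their median log2 fold change was -0.43, against -0.30. From 6000 to under 8000 nt, 5 of 12 members fell (41.7%, against 12.5%). From 4000 to under 6000 nt, 5 of 27 fell (18.5%, against 9.24%), and from 2000 to under 4000 nt 6 of 30 (20%, against 6.65%). In each of these 4 classes the share of members that fell was above that of all genes, in the smallest on 12 members. Within a class, members and other genes were not matched for expression level. Under 2000 nt the pattern differed: 0 of 20 members fell, against 2.30% of 8637 tested genes of that length, and 2 rose (10%, against 8.70%). These shares are near those of all short genes. Their median log2 fold change was 0.12, against 0.09 for all genes of that length. At an unadjusted p under 0.05, 1 of these short members was lower and 7 were higher, and DESeq2 called 1 lower and limma-voom 0.

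**Figure D2:**
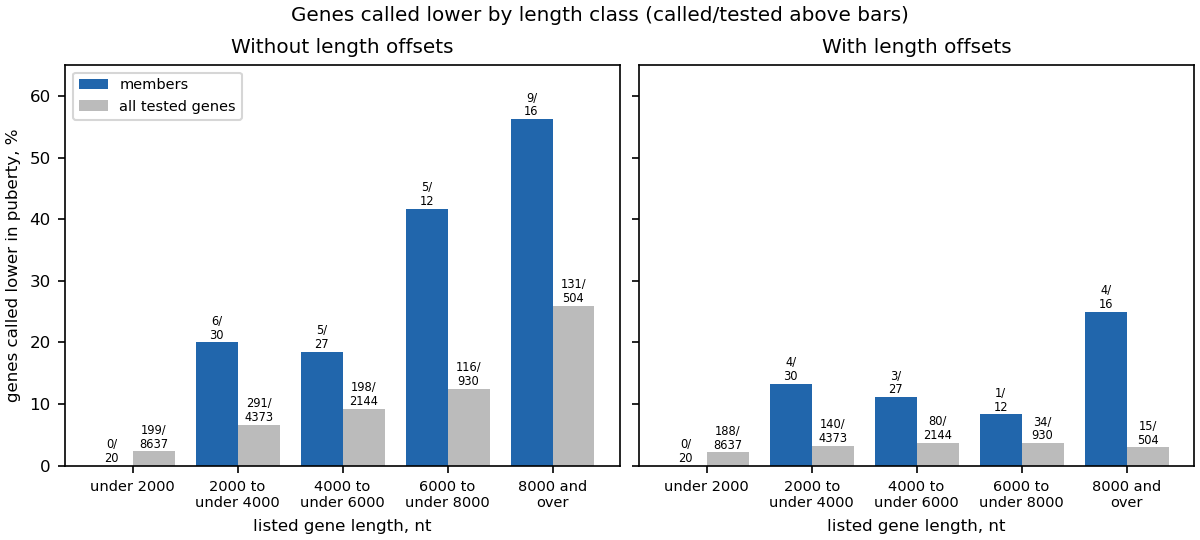
Percentage of genes called lower in puberty (vertical axis) by listed gene length (horizontal axis), for the chromatin genes (blue) and all tested genes (grey), without and with length offsets; the numbers of called and tested genes stand above the bars. Without offsets the blue bars reach 56.2% at 8000 nt and over, where the grey bar is at 26.0%; with offsets they reach 25% and 2.98%.

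The comparison was repeated with an offset per library that takes out the smooth trend of log2 CPM with gene length over all tested genes. With these offsets 12 members were lower and 0 higher, against 2.76% and 2.84% of all tested genes. All 12 were among the 25 that fell without offsets. The median log2 fold change of the members was -0.09, and that of all tested genes 0.0097. Spearman's rho between log2 fold change and length was then -0.36 across the members and 0.0048 across all tested genes, so within the members a trend with length remained. At 8000 nt and over, the median log2 fold change with offsets was -0.21 for the members and -0.03 for all tested genes. At an unadjusted p under 0.05, 8 members were higher and 31 lower, and limma-voom with the same offsets called 0 higher and 11 lower. Of the 15 calls lost, 11 had a log2 fold change that moved by more than 1 SE and 4 by less. All 27 called members kept their direction, and 11 of the 105, none of them called, turned theirs. Whether the trend with length belongs to the glands or to the libraries cannot be told apart here.

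With the offsets, the calls did not outlast the loss of a library. The fit without puberty replicate 3 called KMT2A alone among the members, and the fits without each of the other 5 libraries called 0 members by edgeR. At an unadjusted p under 0.05 these 6 fits had 24 to 32 members lower, and no other tool was run on them. The median deviation of the members with offsets was -0.0013, -0.07 and -0.06 in the puberty libraries, against 0.09, 0.03 and 0.06 in the prepuberty libraries. The groups still do not overlap, but puberty replicate 1 lies close to the mean. For the 28 members of 6000 nt and over the same median was -0.03, -0.11 and -0.10 in the puberty libraries, against 0.13, 0.11 and 0.05 in the prepuberty libraries.

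**Figure D3:**
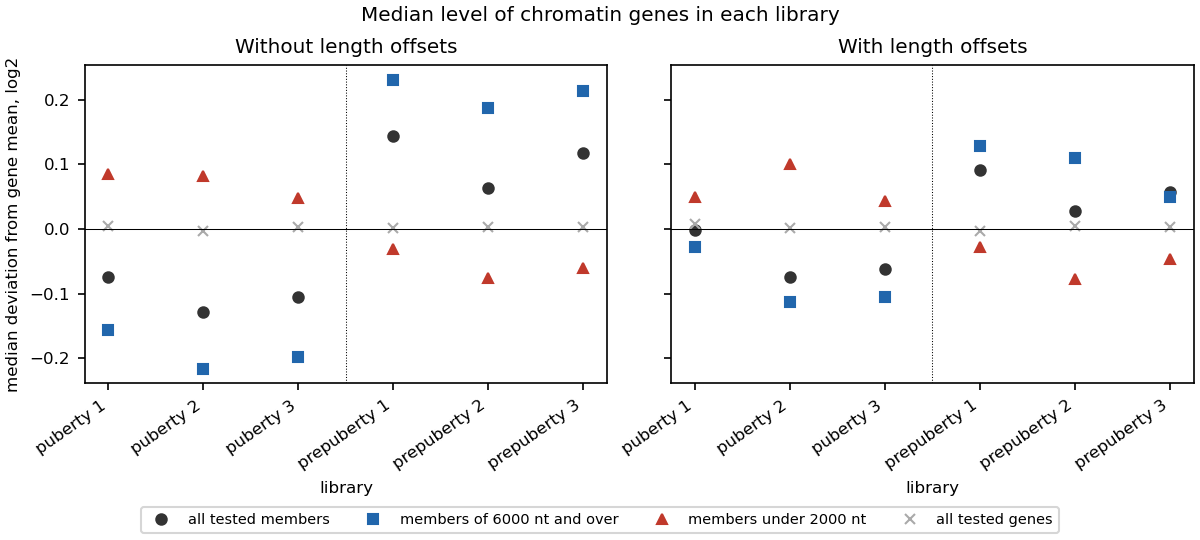
Median deviation of log2 CPM from the gene mean (vertical axis) in each library (horizontal axis, puberty left), for all 105 tested chromatin genes, for the 28 of 6000 nt and over, for the 20 under 2000 nt and for all 16588 tested genes, without and with length offsets. Long members are low in puberty and short members high; with offsets the long members lie at -0.11 to -0.03 in puberty and at 0.05 to 0.13 in prepuberty.

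**Figure D4:**
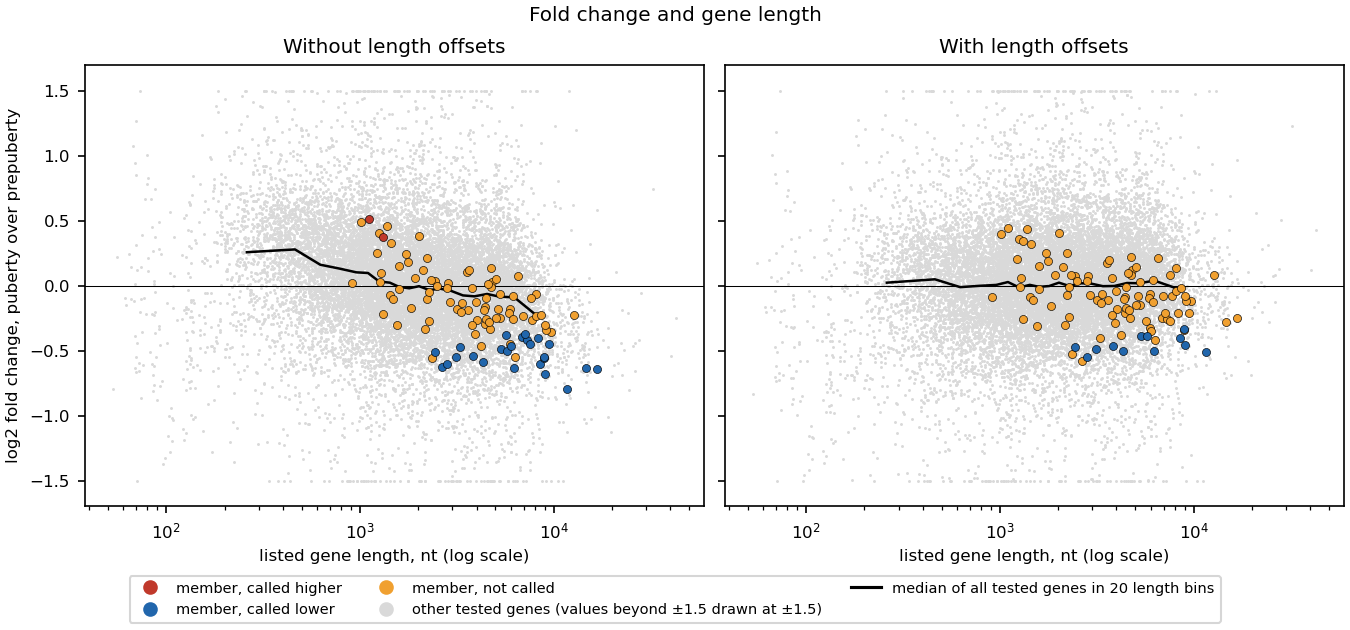
Log2 fold change, puberty over prepuberty (vertical axis), against listed gene length in nt (horizontal log axis), without and with length offsets; coloured points are the 105 tested chromatin genes, grey points other tested genes, and the line is the median of all tested genes in 20 bins of length. The line falls with length on the left and is level on the right, where 12 chromatin genes remain called lower.

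Of 8 genes grouped by H3K4 methylation, not all of them enzymes, 4 fell (50%, against 5.64% of all tested genes): KMT2A, KMT2C, KMT2D and KMT2E. The 8 had a median length of 7032.5 nt, and of all tested genes of 6000 to under 8000 nt 12.5% fell. KMT2A, the founding mammalian homologue of fly trithorax, had the lowest fold change of all members. The gene (chromosome 15, 53152779 to 53226116, listed length 11655 nt) had 91.4, 85.3 and 91.6 CPM in the puberty libraries, against 164, 149 and 153 CPM in the prepuberty libraries. The 3 puberty libraries lay close together and far below the others, and the fall was 1.74-fold (edgeR, -0.80 on the log2 scale, SE 0.08, adjusted p = 0.013). With length offsets the log2 fold change was -0.51 (adjusted p = 0.025). KMT2E, a relative that reads H3K4 methylation and is thought to lack enzyme activity, had 137, 127 and 131 CPM in the puberty libraries, against 184, 179 and 196 CPM in the prepuberty libraries. It fell 1.42-fold (adjusted p = 0.014), with a log2 fold change of -0.50, or -0.39 with length offsets (adjusted p = 0.034). KMT2C and KMT2D, which methylate H3K4 at enhancers, are the longest members that fell, at 14685 nt and 16810 nt. KMT2C had 179, 165 and 186 CPM in the puberty libraries, against 291, 277 and 255 CPM in the prepuberty libraries, and KMT2D had 318, 284 and 296 CPM in the puberty libraries, against 519, 436 and 447 CPM in the prepuberty libraries. They fell 1.55-fold and 1.56-fold (adjusted p = 0.014 for each), and neither was called with length offsets (log2 fold changes -0.28 and -0.25, adjusted p = 0.092 and 0.13). The promoter enzymes KMT2B, SETD1A and SETD1B had log2 fold changes of -0.23, -0.18 and -0.44 (with adjusted p = 0.11, 0.27 and 0.12). SETD7, a short monomethyltransferase (1276 nt), had 0.03 (95% interval -0.37 to 0.44, adjusted p = 0.92).

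Of the 4 genes grouped by H3K36 methylation, 3 fell (75%, against 5.64% of all tested genes). The 4 had a median length of 8936.5 nt, and of all tested genes of 8000 nt and over 26.0% fell. NSD1, which dimethylates H3K36 (chromosome 7, 71853265 to 71996624, 8917 nt), had 156, 142 and 155 CPM in the puberty libraries, against 224, 215 and 225 CPM in the prepuberty libraries. Its fall was 1.47-fold (-0.55 on the log2 scale, SE 0.08, adjusted p = 0.014), and its log2 fold change with length offsets was -0.33 (adjusted p = 0.046). SETD5, a SET domain protein whose own enzyme activity is not settled (chromosome 22, 16952610 to 16993508, 4320 nt), had 85.1, 72.5 and 89.7 CPM in the puberty libraries, against 122, 118 and 131 CPM in the prepuberty libraries, and fell 1.498-fold (adjusted p = 0.014, or 0.030 with length offsets). ASH1L, the homologue of fly Ash1, had 135, 113 and 133 CPM in the puberty libraries, against 188, 192 and 181 CPM in the prepuberty libraries. It fell 1.47-fold (adjusted p = 0.014) and was not called with length offsets (adjusted p = 0.068). SETD2, the enzyme of H3K36 trimethylation, was lower in all puberty libraries (179, 174 and 194 CPM in puberty and 208, 231 and 252 CPM in prepuberty) with an adjusted p of 0.056.

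Of 2 H3K9 methyltransferases 1 fell, and of 2 H3K27 methyltransferases 0 (1 by DESeq2), against 5.64% of all tested genes. SETDB2, an H3K9 methyltransferase of the SETDB family, had 21.1, 14.4 and 19.3 CPM in the puberty libraries, against 29.6, 26.2 and 28.7 CPM in the prepuberty libraries, with puberty replicate 2 the lowest. It fell 1.54-fold (adjusted p = 0.034), was called in 1 of the 6 fits that leave out a library, and had an adjusted p of 0.056 with length offsets. SETDB1, its paralogue, stood at -0.29 on the log2 scale (adjusted p = 0.12). EZH2, the catalytic subunit of Polycomb repressive complex 2 in dividing cells, had 6.88, 7.50 and 6.30 CPM in the puberty libraries, against 10.6, 9.33 and 10.5 CPM in the prepuberty libraries (log2 fold change -0.56, adjusted p = 0.060). The groups do not overlap, and the gene missed the threshold. EZH1, its counterpart in resting cells, was far more abundant at 41.0 ± 5.5 FPKM in puberty and 44.0 ± 3.1 FPKM in prepuberty (SD, n = 3 per group), with a log2 fold change of -0.10 (95% interval -0.36 to 0.15, adjusted p = 0.58). Of the H4K20 enzymes KMT5A, KMT5B and KMT5C, 0 were called by edgeR, DESeq2 or limma-voom, and 1 was lower at an unadjusted p under 0.05. KMT5C, the most abundant of the 3, had 30.5 ± 4.1 FPKM in puberty and 29.6 ± 6.5 FPKM in prepuberty (adjusted p = 0.91). SETD6, a methyltransferase of non-histone proteins, stood at -0.07 on the log2 scale (adjusted p = 0.81); it overlaps NDRG4 in the authors' coordinates, so its counts are uncertain.

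**Figure D5:**
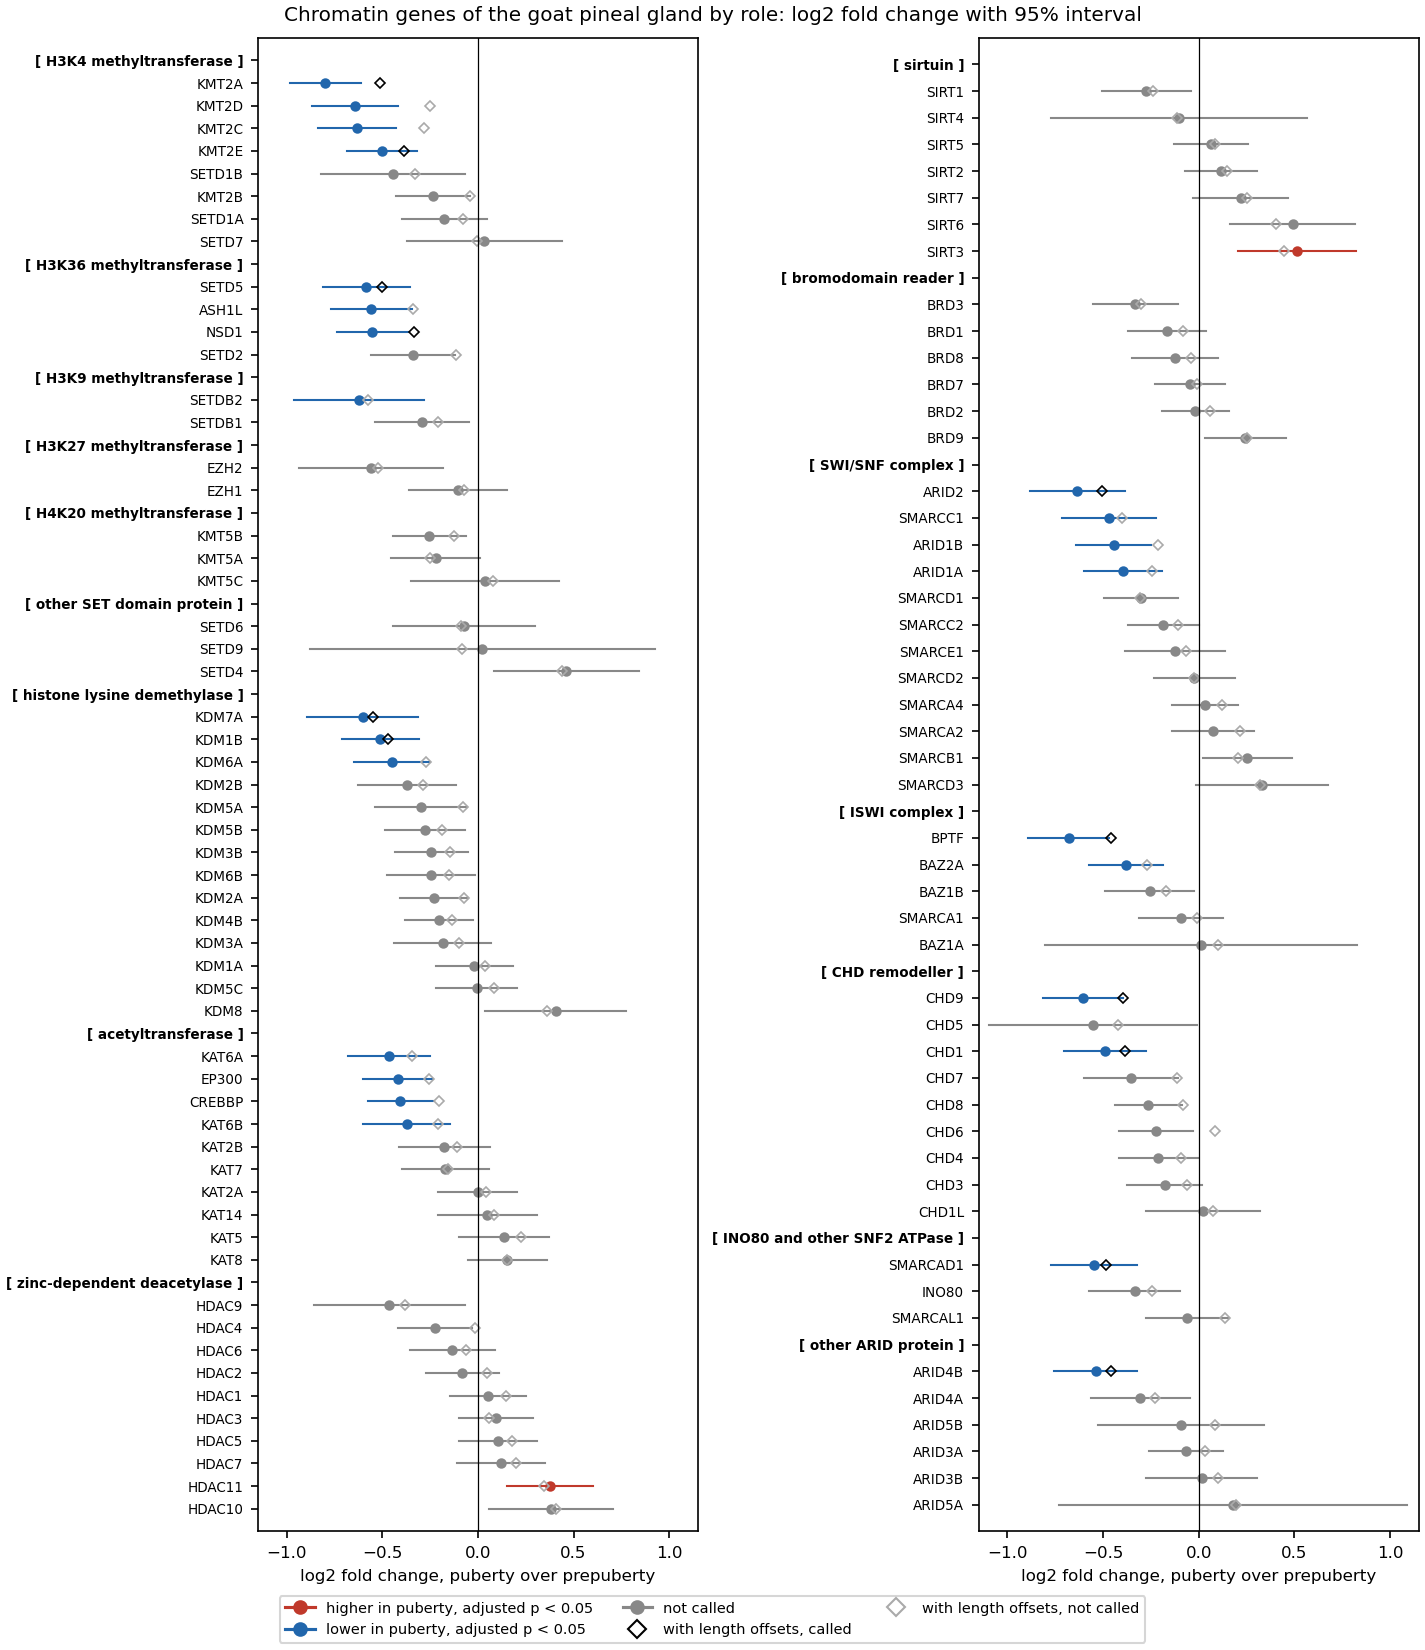
Log2 fold change, puberty over prepuberty, of the tested chromatin genes by role (rows), 1 of them not shown, with 95% intervals; filled points are without length offsets (blue called lower, red called higher, grey not called) and diamonds with them (black called, grey not called). The methyltransferase, acetyltransferase and CHD genes called lie left of 0, and the 2 genes called higher are the deacetylases SIRT3 and HDAC11.

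Demethylases gave 3 falls among 14 genes (21.4%, against 5.64% of all tested genes). Their median length was 4484 nt, and of all tested genes of 4000 to under 6000 nt 9.24% fell. KDM1B, the flavin-dependent H3K4 demethylase of oocytes and gene bodies (chromosome 23, 10942176 to 10978636, 2451 nt), had 28.8, 28.5 and 28.1 CPM in the puberty libraries, against 41.6, 40.1 and 40.01 CPM in the prepuberty libraries. Its replicates lay close together, and it fell 1.42-fold (-0.51 on the log2 scale, SE 0.09, adjusted p = 0.015). At 2451 nt it is the shortest member that fell, and its log2 fold change with length offsets was -0.47 (adjusted p = 0.028). KDM7A, which demethylates H3K9 and H3K27, had 17.1, 13.9 and 15.3 CPM in the puberty libraries, against 25.2, 23.8 and 21.5 CPM in the prepuberty libraries, and fell 1.52-fold (adjusted p = 0.023, or 0.043 with length offsets). It was called in 2 of 6 fits without a library. KDM6A, the X-linked H3K27 demethylase that works with KMT2C and KMT2D, had 74.5, 66.7 and 78.1 CPM in the puberty libraries, against 102, 97.1 and 100.4 CPM in the prepuberty libraries, and fell 1.37-fold (adjusted p = 0.019, or 0.091 with length offsets). KDM2B, a CpG island-binding demethylase that recruits Polycomb, stood at -0.37 on the log2 scale (adjusted p = 0.066). Of the H3K4 demethylases KDM5A, KDM5B and KDM5C, KDM5B had -0.28 (adjusted p = 0.087) and KDM5C -0.01 (95% interval -0.22 to 0.20). KDM1A, the most abundant demethylase with 57.0 ± 4.1 FPKM in puberty and 57.6 ± 2.7 FPKM in prepuberty (SD, n = 3 per group), had a log2 fold change of -0.02 (95% interval -0.22 to 0.18, adjusted p = 0.91). KDM8, a short JmjC gene (1249 nt), was the demethylase with the highest fold change, 0.41 (adjusted p = 0.14).

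Of 10 acetyltransferases 4 fell (40%, against 5.64% of all tested genes), and these are the 4 longest, at 5999 to 8273 nt. Among all tested genes 12.5% fell at 6000 to under 8000 nt and 26.0% at 8000 nt and over. CREBBP and EP300, the paired coactivators that acetylate H3K27 and bind the cAMP-responsive factor CREB, had closely matched values. CREBBP had 121, 117 and 120.2 CPM in the puberty libraries, against 161, 159 and 153 CPM in the prepuberty libraries, and EP300 had 121, 118 and 117 CPM in the puberty libraries, against 168, 157 and 151 CPM in the prepuberty libraries. They fell 1.32-fold and 1.34-fold (adjusted p = 0.016 and 0.017). KAT6A, a MYST family enzyme of H3K23, had 85.1, 69.8 and 77.0 CPM in the puberty libraries, against 111, 108 and 102 CPM in the prepuberty libraries, and fell 1.38-fold (adjusted p = 0.021). KAT6B, its paralogue, fell 1.29-fold (adjusted p = 0.046), was called in 0 of 6 fits without a library and was not called by limma-voom or on log2 FPKM. With length offsets 0 of the 10 were called by edgeR or limma-voom, and 3 were lower at an unadjusted p under 0.05. Their log2 fold changes were then -0.21, -0.25, -0.34 and -0.21. The shorter enzymes KAT2A, KAT5, KAT7, KAT8 and KAT14 had log2 fold changes of -0.0016, 0.14, -0.17, 0.15 and 0.05, with adjusted p-values of 0.29 or more.

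Both members that rose were deacetylases, 1 of 10 HDAC genes (10%) and 1 of 7 sirtuins (14.3%). Of all tested genes 5.85% rose, and of those under 2000 nt, as both of these are, 8.70%. HDAC11, the sole class IV deacetylase (chromosome 22, 58333543 to 58353137, 1322 nt), had 78.2, 78.6 and 79.4 CPM in the puberty libraries, against 66.5, 62.1 and 53.3 CPM in the prepuberty libraries. It rose 1.30-fold (0.38 on the log2 scale, SE 0.10, adjusted p = 0.042). SIRT3, the main deacetylase of the mitochondrial matrix (on an unplaced scaffold, 1108 nt), had 27.1, 29.3 and 24.6 CPM in the puberty libraries, against 19.6, 15.95 and 21.2 CPM in the prepuberty libraries. It rose 1.43-fold (0.51 on the log2 scale, SE 0.14, adjusted p = 0.044), the highest fold change of all members. The groups of both genes do not overlap, yet neither was called in any of the 6 fits without a library, nor with length offsets (adjusted p = 0.070 and 0.085). Log2 FPKM gave HDAC11 an adjusted p of 0.052 with a pseudocount of 1 and 0.051 with a pseudocount of 0.1. SIRT6, a nuclear sirtuin, had 16.6, 14.2 and 13.1 CPM in puberty and 10.5, 10.01 and 10.8 CPM in prepuberty (log2 fold change 0.49, adjusted p = 0.060), and HDAC10, a polyamine deacetylase, 14.3, 14.0 and 13.4 CPM in puberty and 10.5, 9.62 and 11.9 CPM in prepuberty (adjusted p = 0.12). SIRT1 had a log2 fold change of -0.27 (95% interval -0.50 to -0.04, adjusted p = 0.12). The class I enzymes HDAC1, HDAC2 and HDAC3, which work in nuclear corepressor complexes, had 0.05, -0.08 and 0.10, with 95% intervals of -0.15 to 0.25, -0.27 to 0.11 and -0.10 to 0.29. The most abundant of each family, the class IIa enzyme HDAC5 (77.0 ± 3.5 FPKM in puberty and 71.6 ± 5.5 FPKM in prepuberty, SD, n = 3 per group) and the cytoplasmic tubulin deacetylase SIRT2 (41.3 ± 1.2 FPKM in puberty and 38.0 ± 2.3 FPKM in prepuberty), had adjusted p-values of 0.49 and 0.38. HDAC9 had 45.7, 37.8 and 46.9 CPM in puberty and 48.6, 76.4 and 54.7 CPM in prepuberty, where prepuberty replicate 2 was well above the others (adjusted p = 0.12). SIRT7 overlaps PCYT2 in the authors' coordinates, and its counts are uncertain.

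Readers of acetylated histones held no call: edgeR called 0 of 7 BRD genes, with 2 lower and 1 higher at an unadjusted p under 0.05, while limma-voom called 0 and DESeq2 called 1 lower. BRD3, a BET protein, stood at -0.33 on the log2 scale (adjusted p = 0.059), and BRD9, a subunit of the non-canonical SWI/SNF complex, at 0.24 (adjusted p = 0.13).

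Within SWI/SNF, the complex that slides and evicts nucleosomes, the subunits that fell were the large ARID proteins and a scaffold, while neither ATPase was called. They are 4 of 12 genes (33.3%, against 5.64% of all tested genes). ARID2, which marks the PBAF form of the complex (chromosome 5, 33853106 to 34053691, 6238 nt), had 48.4, 38.2 and 39.4 CPM in the puberty libraries, against 63.1, 64.6 and 68.1 CPM in the prepuberty libraries. It fell 1.55-fold (-0.63 on the log2 scale, SE 0.11, adjusted p = 0.014), and stood at -0.50 with length offsets (adjusted p = 0.039). ARID1A and ARID1B, the alternative ARID subunits of the BAF form, fell 1.31-fold and 1.36-fold (adjusted p = 0.028 and 0.019). ARID1A had 205, 199 and 199.7 CPM in the puberty libraries, against 286, 241 and 268 CPM in the prepuberty libraries, and ARID1B had 75.5, 72.5 and 69.7 CPM in the puberty libraries, against 99.1, 92.0 and 105 CPM in the prepuberty libraries. They were called in 1 and 3 of 6 fits without a library and not with length offsets (adjusted p = 0.13 and 0.16). SMARCC1, a core scaffold, had 75.2, 61.4 and 74.6 CPM in the puberty libraries, against 104, 87.8 and 100.4 CPM in the prepuberty libraries, and fell 1.38-fold (adjusted p = 0.030, or 0.062 with length offsets). The catalytic subunits SMARCA4 and SMARCA2 had log2 fold changes of 0.03 (95% interval -0.14 to 0.20) and 0.08 (95% interval -0.14 to 0.29). SMARCA4 had 221, 213 and 219 CPM in the puberty libraries, against 214, 211 and 214 CPM in the prepuberty libraries. The short core subunit SMARCB1 had 0.25 (adjusted p = 0.14), and SMARCD3 0.33 (adjusted p = 0.19).

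Of 5 members of the ISWI group, which spaces nucleosomes, the reader subunits BPTF and BAZ2A fell (40%, against 5.64% of all tested genes). BPTF, which brings the NURF complex to H3K4 methylation (chromosome 19, 48579449 to 48705140, 9042 nt), had 129.6, 107 and 116 CPM in the puberty libraries, against 184, 183 and 197 CPM in the prepuberty libraries. It fell 1.60-fold (-0.68 on the log2 scale, SE 0.09, adjusted p = 0.014), and stood at -0.46 with length offsets (adjusted p = 0.034). BAZ2A, of the nucleolar remodelling complex, had 140.0, 126 and 138 CPM in the puberty libraries, against 185, 173 and 168 CPM in the prepuberty libraries. Its fall was 1.30-fold (adjusted p = 0.027, or 0.094 with length offsets), called in 0 of 6 fits without a library. SMARCA1, an ATPase of the group, had 54.1 ± 3.6 FPKM in puberty and 57.7 ± 5.1 FPKM in prepuberty (SD, n = 3 per group), with a log2 fold change of -0.10 (95% interval -0.31 to 0.12).

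In the CHD family the puberty libraries lay below the prepuberty libraries for 8 of 9 genes, and 2 passed the test. Of all tested genes 17.6% lay below in this way and 5.64% were called lower. These genes are long, with a median of 6291 nt. With length offsets their median log2 fold change went from -0.26 to -0.09. At an unadjusted p under 0.05 by edgeR, 7 of the 9 were lower without offsets and 2 with them. CHD9 (chromosome 18, 23019798 to 23147630, 8511 nt) had 94.3, 77.8 and 82.6 CPM in the puberty libraries, against 131, 126 and 131 CPM in the prepuberty libraries, and fell 1.52-fold (-0.61 on the log2 scale, SE 0.09, adjusted p = 0.014). CHD1, which accompanies elongating polymerase, had 50.9, 44.6 and 51.6 CPM in the puberty libraries, against 69.1, 64.8 and 72.4 CPM in the prepuberty libraries, and fell 1.40-fold (adjusted p = 0.019). With length offsets their log2 fold changes were -0.40 and -0.39 (adjusted p = 0.045 and 0.048), and CHD1 was not called by limma-voom with those offsets (adjusted p = 0.054). CHD7 had 186, 196 and 166 CPM in puberty and 242, 204 and 255 CPM in prepuberty (log2 fold change -0.35, adjusted p = 0.066), or -0.12 with offsets (adjusted p = 0.53). CHD8, the autism-associated remodeller, had -0.26 (adjusted p = 0.058), and CHD4 -0.21 (adjusted p = 0.17). CHD6, the longest of the family at 12702 nt, had -0.22 (adjusted p = 0.13) and 0.09 with offsets, a turn of sign.

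SMARCAD1, an SNF2 ATPase that keeps heterochromatin through replication (chromosome 6, 30851769 to 30939718, 3136 nt), had 40.3, 34.7 and 41.3 CPM in the puberty libraries, against 53.6, 57.7 and 58.5 CPM in the prepuberty libraries. It fell 1.46-fold (adjusted p = 0.016, or 0.031 with length offsets). INO80, the ATPase of the complex of that name, stood at -0.33 on the log2 scale (adjusted p = 0.072), and SMARCAL1, a replication fork remodeller of 8153 nt, -0.06 (adjusted p = 0.71). ARID4B, a subunit of the SIN3 deacetylase complex (chromosome 28, 37350682 to 37433283, 3849 nt), had 89.8, 97.1 and 101 CPM in the puberty libraries, against 149, 125 and 145 CPM in the prepuberty libraries, and fell 1.45-fold (adjusted p = 0.015, or 0.033 with length offsets). Its paralogue ARID4A had -0.30 (adjusted p = 0.12).

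Other genes of the same complexes were listed apart from the members. Of 183 genes listed, 155 were tested, and 19 fell and 7 rose, or 10 and 4 with length offsets. These are 12.3% lower and 4.52% higher, against 5.64% and 5.85% of all tested genes; with offsets they are 6.45% and 2.58%, against 2.76% and 2.84%. Without prepuberty replicate 1, where edgeR called 0 genes of the whole table, 0 of these calls were made. Their median length was 2499 nt and their median log2 fold change -0.10. Of 25 Polycomb subunits 5 fell (20%) and 0 rose. Among those that fell were ASXL2, a partner of the deubiquitinase BAP1 (20.6 ± 1.9 CPM in puberty and 35.9 ± 4.3 CPM in prepuberty, adjusted p = 0.014), the PRC1 subunit PHC3 (adjusted p = 0.015) and JARID2, which targets PRC2 (adjusted p = 0.028). Of 30 remodeller subunits 3 fell and 4 rose (10% and 13.3%, against 5.64% and 5.85% of all tested genes). RSF1, an ISWI partner, had 59.5 ± 1.6 CPM in puberty and 89.2 ± 0.64 CPM in prepuberty (SD, n = 3 per group), with -0.58 on the log2 scale, SE 0.08, adjusted p = 0.014 by edgeR, and the PBAF subunit PBRM1 fell 1.40-fold beside ARID2 (adjusted p = 0.016). DPF3, a BAF reader, fell 1.44-fold (adjusted p = 0.029). The 4 that rose were named after their values were seen. They are the AAA ATPases RUVBL1 and RUVBL2, shared by the INO80 and SRCAP complexes (1.25-fold and 1.32-fold, adjusted p = 0.037 and 0.035), the small INO80 subunit INO80E (1.30-fold, adjusted p = 0.038) and the SRCAP subunit ZNHIT1 (1.41-fold, adjusted p = 0.041).

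Of 30 subunits of acetyltransferase complexes 2 fell and 1 rose (6.67% and 3.33%, near the 5.64% and 5.85% of all tested genes). TRRAP, the giant scaffold that SAGA and NuA4 share (11844 nt), fell 1.38-fold (adjusted p = 0.016, or 0.26 with length offsets), YEATS2, a reader of the ATAC complex, fell 1.31-fold (adjusted p = 0.041), and the short adaptor TADA3 rose 1.29-fold (adjusted p = 0.039). Of 25 subunits of deacetylase complexes 3 fell and 1 rose (12% and 4%, against 5.64% and 5.85% of all tested genes). Among them were MIER3 (-0.54 on the log2 scale, adjusted p = 0.024), the NCoR subunit TBL1XR1 (-0.46, adjusted p = 0.030) and the SIN3-associated BRMS1 (0.46, adjusted p = 0.034). Of 9 COMPASS subunits, the partners of the KMT2 enzymes, 0 fell and 1 rose (11.1%, against 5.85% of all tested genes, on 9 genes). PAGR1, a short subunit specific to the KMT2C and KMT2D complexes, rose, with 129 ± 7.6 CPM in puberty and 85.8 ± 8 CPM in prepuberty (SD, n = 3 per group), with 0.58 on the log2 scale, SE 0.10, adjusted p = 0.014. At an unadjusted p under 0.05, 2 of the 9 were lower by edgeR, and DESeq2 and limma-voom also called 0 lower. Of 23 further histone methylation genes 4 fell (17.4%), led by the heterochromatin protein CBX5 (-0.62 on the log2 scale, SE 0.10, adjusted p = 0.014), NSD3 (adjusted p = 0.018) and JMJD1C (adjusted p = 0.019). Of 13 histone chaperones the HIRA partners UBN1 and UBN2 fell (15.4%), 1.36-fold and 1.96-fold (adjusted p = 0.015 and 0.019). Of all tested genes 5.64% fell.

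Markers of other cell types moved between the groups beside these genes, and their part in the result was not tested. Of 9 tested markers of dividing cells 6 fell (7 by DESeq2), and the list summed to 18.0, 14.4 and 18.8 CPM in the puberty libraries, against 41.1, 52.3 and 56.2 CPM in the prepuberty libraries. The 12 microglia and macrophage markers summed to 193, 325 and 342 CPM in the puberty libraries, against 179.7, 214 and 157 CPM in the prepuberty libraries. All 12 had a positive log2 fold change, and 7 were higher at an unadjusted p under 0.05. Of them edgeR called 1 higher, DESeq2 5 and limma-voom 0. The 9 detected astrocyte markers, of which 2 rose (3 by DESeq2), summed to 6541, 6531 and 6338 CPM in the puberty libraries, against 4321, 5907 and 4480.0 CPM in the prepuberty libraries. Of these 9, 6 had a positive log2 fold change and 3 a negative one (AQP4, SLC1A2 and GJA1). The largest part of the sum was GFAP, with a mean of 3767 CPM in puberty and 2646 CPM in prepuberty, which edgeR did not call (adjusted p = 0.078). Of 10 tested mitochondrially encoded genes, listed as a sign of RNA quality, 3 rose (6 by DESeq2), and they summed to 7532, 10255 and 8683 CPM in the puberty libraries, against 5666, 6576 and 7155 CPM in the prepuberty libraries. The pinealocyte markers, with 1 rise and 1 fall among 12, summed to 10577, 10426 and 9658 CPM in the puberty libraries, against 9414, 8847 and 9829.6 CPM in the prepuberty libraries. The 8 tested oligodendrocyte markers summed to 262, 264 and 244 CPM in the puberty libraries, against 271, 397 and 349.8 CPM in the prepuberty libraries, with no overlap. Of these 8, edgeR called 0, with 4 lower and 0 higher at an unadjusted p under 0.05, DESeq2 called 2 lower and limma-voom 0, and with length offsets edgeR called 1 lower, the myelin gene MOBP. Of the neuron (10), endothelium (9) and fibroblast and meninges (7) markers tested, edgeR called 0, with 3 higher and 1 lower at an unadjusted p under 0.05, while DESeq2 called 1 higher and 0 lower. No marker found in the table was at 0 in all libraries. Without puberty replicate 2, the library with choroid plexus RNA, the median log2 fold change of the members was -0.18, against -0.20 with all libraries.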

How the data were processed

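Total RNA (TRIzol) was made into NEBNext Ultra libraries, per the labels' protocols, a kit that does not keep strand. How the counting treated strand is not known from these sources. The submitters' processing notes name CASAVA 1.8, fastp and HISAT2 2.0.5, as well as featureCounts 1.5.0-p3 and also DESeq2 1.20.0, with neither roles nor settings. They also name human builds (GRCh38, hg38) although the identifiers are goat, so coordinates are printed as the authors' tables list them, with no build named.

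The deposited counts are the authors' whole-number reads per gene. The deposited FPKM values are the authors' own and were used for levels between genes and for an alternative test. Unless another tool is named, p-values come from edgeR 4.0.16 (R 4.3.3) on the counts: filterByExpr with a minimum count of 10, TMM scaling, robust quasi-likelihood fit and F test, Benjamini-Hochberg adjustment over 16588 genes, calls at 0.05, with no covariate. The standard error was taken from the fold change and the F statistic, and intervals cover 95%. Length offsets are, per library, a loess fit (span 0.3) of the log2 CPM deviation (prior count 2) on log2 length, added to the edgeR offsets. They were chosen because fold changes follow length. The scripts were tested on simulated data.

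No library was a copy of another: within a group, chi-square per degree of freedom between 2 libraries was 17.3 to 39.0, where sampling gives about 1. The fits were repeated with RLE scaling, other count filters, DESeq2 1.42.0, limma 3.58.1 (voom, and log2 FPKM plus a pseudocount of 1 or 0.1, a scale that understates the change of low genes), a block for the replicate number, a threshold of 0.1, length bins in place of loess, and without each library. DESeq2 and limma-voom without prepuberty replicate 1 were added after seeing the data.

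The members, role lists, partner lists and markers were chosen with earlier results of these data known, so no test of a list as a whole was made. Named with values were the 24 called members of smallest p, all those called with length offsets, the most abundant member of each role, both extremes of fold change, up to 3 called genes per partner list by smallest p, the 4 remodeller subunits that rose (added after their values were seen), and further members for which values are given with no claim of change. The values of 1 member are not reported here. Genes with no symbol stayed in the tests (4322 of those tested).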

Additional observations from a re-analysis of the deposited data

How the results depend on the processing

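RLE scaling, both other count filters, DESeq2 and both log2 FPKM tests left the members' calls within 1.5 times the counts reported, as did limma-voom on all 6 libraries (24 to 33 lower, 2 to 3 higher), and all 27 called members kept their direction in every fit run. Leaving out 1 library gave 0 to 1 members higher and 0 to 22 lower, with 0 to 728 genes higher and 0 to 540 lower in the whole table. With length offsets these ranges were 0 to 1 members lower, and 0 to 142 genes higher and 0 to 66 lower. The members' median ran from -0.22 to -0.18, or -0.11 to -0.06 with offsets. Without prepuberty replicate 1, DESeq2 called 1 member higher, while limma-voom called 0 members and 0 genes in either direction. At a threshold of 0.1 the whole table gave 1628 genes higher and 1617 lower. With length offsets that threshold gave 2 members higher and 23 lower, and 1146 and 1063 genes. In the labels, libraries of the same number share only that number. Their deviations from the group means correlated at 0.05, -0.10 and -0.10, and those of the other pairs at -0.03 to 0.12. With 3 libraries per group these values cannot decide whether the libraries are paired, and pairing was not assumed. With a replicate block 0 members were higher and 18 lower (366 and 354 genes), and with the block and length offsets 0 members were lower, with 1 gene higher and 1 lower; the cause was not tested. Log2 fold changes near 0 of genes that were not called turned sign when 1 library was left out, with these ranges: BRD2 -0.025 to 0.013, EZH1 -0.19 to 0.00032, EZH1 with length offsets -0.16 to 0.025, KDM1A -0.076 to 0.030, KDM1A with length offsets -0.026 to 0.078, KMT5C -0.11 to 0.21, KMT5C with length offsets -0.078 to 0.23, SETD6 -0.23 to 0.044, SETD6 with length offsets -0.25 to 0.018, SMARCA1 with length offsets -0.078 to 0.039. Without prepuberty replicate 1, SETD6 stood at 0.0036 by DESeq2 and 0.041 by limma-voom. The cause was not tested. Counts limit the lowest members most: the 95% interval of ARID5A spans -0.73 to 1.09.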

Other observations

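Further genes with the same protein domains, by the domain column of the authors' table, were looked at after their values were seen, so their counts are a description. Of 12 other tested bromodomain genes 6 fell (50%), and of 12 members with that domain 1 fell (8.33%, 2 genes by DESeq2). The difference between the shares of these 2 bromodomain groups was not tested. Of all tested genes 5.64% fell, and of those of 4000 to under 6000 nt 9.24%. The 12 other bromodomain genes had a median length of 4084 nt. PHIP, a chromatin reader of the WD-repeat and bromodomain family, had 97.2, 89.5 and 92.2 CPM in the puberty libraries, against 168, 141 and 148 CPM in the prepuberty libraries, and its relatives BRWD1 and BRWD3 fell 1.51-fold and 1.65-fold (edgeR adjusted p = 0.014 and 0.014). The TRIM family readers TRIM33 and TRIM24 fell 1.45-fold and 1.34-fold (adjusted p = 0.017 and 0.038).

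Of 18 other SNF2 ATPase genes, with a median length of 4522.5 nt, 7 fell (38.9%, against 5.64% of all tested genes). Those with a symbol were HLTF, a helicase of stalled replication forks (1.35-fold, adjusted p = 0.0499), SHPRH, its relative (1.58-fold, adjusted p = 0.014), BTAF1, which removes the TATA-binding protein from DNA (1.47-fold, adjusted p = 0.014), and RAD54L2 (1.36-fold, adjusted p = 0.029). With length offsets 4 of the bromodomain genes and 3 of the SNF2 genes were lower (33.3% and 16.7%, against 2.76% of all tested genes). Of 14 other SET domain genes 1 fell and 1 rose (7.14% each, near the 5.64% and 5.85% of all tested genes). PRDM2, a tumour suppressor with zinc fingers, fell, with 66.6, 60.1 and 60.5 CPM in the puberty libraries, against 80.7, 78.3 and 74.0 CPM in the prepuberty libraries. SMYD2, a methyltransferase of lysines in p53, rose, with 47.8, 45.9 and 57.8 CPM in the puberty libraries, against 33.6, 37.0 and 24.5 CPM in the prepuberty libraries. Their adjusted p-values were 0.047 and 0.034. Without prepuberty replicate 1, 0 of these calls were made by edgeR.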
